A study of Mus musculus with 24 samples.

Results

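The Cyp3a genes of the mouse were examined for H3K27ac, acetylation of lysine 27 on histone H3, in liver. The members are 9 protein-coding genes, Cyp3a11, Cyp3a13, Cyp3a16, Cyp3a25, Cyp3a41a, Cyp3a41b, Cyp3a44, Cyp3a57 and Cyp3a59, of 22350 on the autosomes and X. They were chosen by name, and a peak was assigned to a member where it overlapped the gene body or the 10 kb on either side of it, called its window below. For B6 the windows held 12 of 79818 peaks of the male list and 17 of 82176 of the female list, and for CAST 19 of 90228 and 22 of 84645.

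The 4 groups were mice of both sexes from 2 inbred strains, CAST/EiJ (CAST) and C57BL/6J (B6), aged 8 weeks, with 5 livers and 1 input control per group. The study asked which sex differences in liver chromatin these evolutionarily distant strains share and which depend on strain. Each list is 1 peak set called on the pooled reads of the 5 livers, so no value below has a spread between animals, and no test between groups was possible. Groups follow the sample titles, since the strain field of the labels contradicts them (it names all males B6 and all females CAST).

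CYP3A enzymes are haem-containing monooxygenases of the endoplasmic reticulum that oxidise steroids, bile acids and a large share of drugs. Their genes arose by tandem duplication, and in mouse liver several are set by the pattern of growth hormone secretion, which differs between the sexes. Cyp3a11 is the main drug-inducible form, switched on by the xenobiotic receptors PXR and CAR. Cyp3a41a, Cyp3a41b and Cyp3a44 are known as female-predominant in adult liver. Cyp3a16 is known as a form of fetal liver and also as a female-biased gene of adult liver. H3K27ac marks active promoters and enhancers.

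Coordinates are on mm9 with GENCODE vM1 genes. Cyp3a13 (ENSMUSG00000029727.7) lies apart at chr5:138334160-138362847 on the minus strand. The other 8 form a block of 839 kb, counted with 10 kb on each side. In genome order they are Cyp3a57 (ENSMUSG00000070419.5, chr5:146106148-146151381, plus strand), Cyp3a16 (ENSMUSG00000038656.5, chr5:146197178-146230592, minus), Cyp3a41b (ENSMUSG00000075552.3, chr5:146319544-146345599, minus) and Cyp3a41a (ENSMUSG00000075551.3, chr5:146505635-146531712, minus). These are followed by Cyp3a44 (ENSMUSG00000054417.5, chr5:146585559-146617450, minus), Cyp3a11 (ENSMUSG00000056035.7, chr5:146666002-146691540, minus), Cyp3a25 (ENSMUSG00000029630.9, chr5:146788770-146821194, minus) and Cyp3a59 (ENSMUSG00000061292.6, chr5:146890834-146924861, plus). The nearest protein-coding genes outside the block are Zfp498 on the left and Gm6309 on the right.

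The upstream sequences show how close some members are, which bears on what uniquely mapped reads can resolve. The 200 bases that end just before the annotated start are given 5′ to 3′ on the strand of the gene, read from the mm9 genome, for the 5 members that hold the letters TGTTTAC, a core of the FOXA motif, which stand in capitals. They lie at chr5:146230593-146230792 (Cyp3a16), chr5:146345600-146345799 (Cyp3a41b), chr5:146531713-146531912 (Cyp3a41a), chr5:146617451-146617650 (Cyp3a44) and chr5:146691541-146691740 (Cyp3a11), all on the minus strand.
Cyp3a16: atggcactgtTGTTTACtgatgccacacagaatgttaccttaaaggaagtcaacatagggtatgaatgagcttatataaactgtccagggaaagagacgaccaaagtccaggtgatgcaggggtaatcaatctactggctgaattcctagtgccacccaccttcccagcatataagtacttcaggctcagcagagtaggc
Cyp3a41b: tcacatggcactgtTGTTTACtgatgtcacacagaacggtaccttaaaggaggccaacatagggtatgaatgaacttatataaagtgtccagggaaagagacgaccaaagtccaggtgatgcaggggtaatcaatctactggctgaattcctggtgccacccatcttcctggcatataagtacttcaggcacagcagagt
Cyp3a41a: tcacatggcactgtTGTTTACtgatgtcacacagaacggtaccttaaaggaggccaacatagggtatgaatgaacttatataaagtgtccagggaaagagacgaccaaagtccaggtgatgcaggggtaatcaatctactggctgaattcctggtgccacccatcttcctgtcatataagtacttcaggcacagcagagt
Cyp3a44: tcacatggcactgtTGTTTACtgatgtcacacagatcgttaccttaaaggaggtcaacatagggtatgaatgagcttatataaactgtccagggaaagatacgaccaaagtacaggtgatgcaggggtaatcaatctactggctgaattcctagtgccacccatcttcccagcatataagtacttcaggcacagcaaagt
Cyp3a11: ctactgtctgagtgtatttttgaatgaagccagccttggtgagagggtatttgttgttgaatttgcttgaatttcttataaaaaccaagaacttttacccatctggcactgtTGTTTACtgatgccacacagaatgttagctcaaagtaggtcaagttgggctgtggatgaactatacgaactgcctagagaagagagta

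Cyp3a41b and Cyp3a41a were identical at 199 of these 200 bases (99.5%). Cyp3a44 matched Cyp3a41b at 189 of 200 (94.5%), and Cyp3a16, moved by 4 bases, matched Cyp3a44 at 187 of 196 (95.4%). Cyp3a11 was more distant, with a best ungapped match to Cyp3a16 of 68 of 98 bases (69.4%).

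A second family of upstream sequences was found in the members at the ends of the block. The 200 bases before the start lie at chr5:146105948-146106147 (Cyp3a57, plus strand), chr5:146821195-146821394 (Cyp3a25, minus strand) and chr5:146890634-146890833 (Cyp3a59, plus strand), and none holds a letter motif of those searched.
Cyp3a57: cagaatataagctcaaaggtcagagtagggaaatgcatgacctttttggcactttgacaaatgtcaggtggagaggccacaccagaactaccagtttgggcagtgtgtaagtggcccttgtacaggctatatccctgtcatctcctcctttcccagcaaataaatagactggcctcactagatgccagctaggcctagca
Cyp3a25: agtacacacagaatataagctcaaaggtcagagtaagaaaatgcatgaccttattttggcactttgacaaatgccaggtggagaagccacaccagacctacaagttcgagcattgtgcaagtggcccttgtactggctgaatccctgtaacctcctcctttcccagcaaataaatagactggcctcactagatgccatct
Cyp3a59: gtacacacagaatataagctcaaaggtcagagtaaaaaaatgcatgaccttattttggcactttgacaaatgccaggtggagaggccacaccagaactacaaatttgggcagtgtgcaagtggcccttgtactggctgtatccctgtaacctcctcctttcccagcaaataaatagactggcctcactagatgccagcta

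Cyp3a25 and Cyp3a59, moved by 1 base, matched at 190 of 199 bases (95.5%). Cyp3a57 matched Cyp3a59 at 150 of 191 bases (78.5%).

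Motifs were searched by letters on both strands in the stretch from 250 bases before to 50 after each start. TGTTTAC (FOXA) was found in 5 of 9 members, against 3.11% of 22345 promoters of protein-coding genes. No member held TTCNNNGAA (STAT5 and BCL6, 7.94% of promoters), ATCGAT (HNF6 and CUX2, 0.877%) or TTGCGCAA (CEBP, 0.206%). The same held for pairs of AGGTCA or AGTTCA half-sites as direct repeats with 1, 3 or 4 bases between them (0.0716%, 0.00895% and 0.0179%) or as everted repeats with 6 (0%). The 5 matches lie in related sequences and are not independent of each other. A match by letters is a description of the sequence, and its absence covers only these letters in this stretch.

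Uniquely mapped reads cannot be placed where the genome repeats. The share of positions whose 50-base word, the length of 1 read, occurs once in mm9 on either strand was 95.9% in the Cyp3a13 window and 86.9% in that of Cyp3a57. It was 82.2% for Cyp3a16, 80.5% for Cyp3a11, 85.8% for Cyp3a25 and 84.0% for Cyp3a59, against 88.6% of 5111569 evenly spaced positions of the genome. Only 63.4% of the Cyp3a44 window, 31.7% of the Cyp3a41b window and 30.1% of the Cyp3a41a window were unique. With 100-base words, about what both ends of a read pair supply, these 3 rose to 83.3%, 53.1% and 51.8%, against 93.4% of the genome. Of the words in the window of either Cyp3a41 gene, 60% also occurred in the window of the other. Between Cyp3a25 and Cyp3a59 the shared part was 12.5% and 12.1%, and no other pair of windows shared over 5%. The assembly also holds a gap of 50 kb at chr5:146422976-146472975, between Cyp3a41b and Cyp3a41a. In the gene bodies of Cyp3a41b and Cyp3a41a the unique share was 17.8% and 19.1%.

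**Figure D1:**
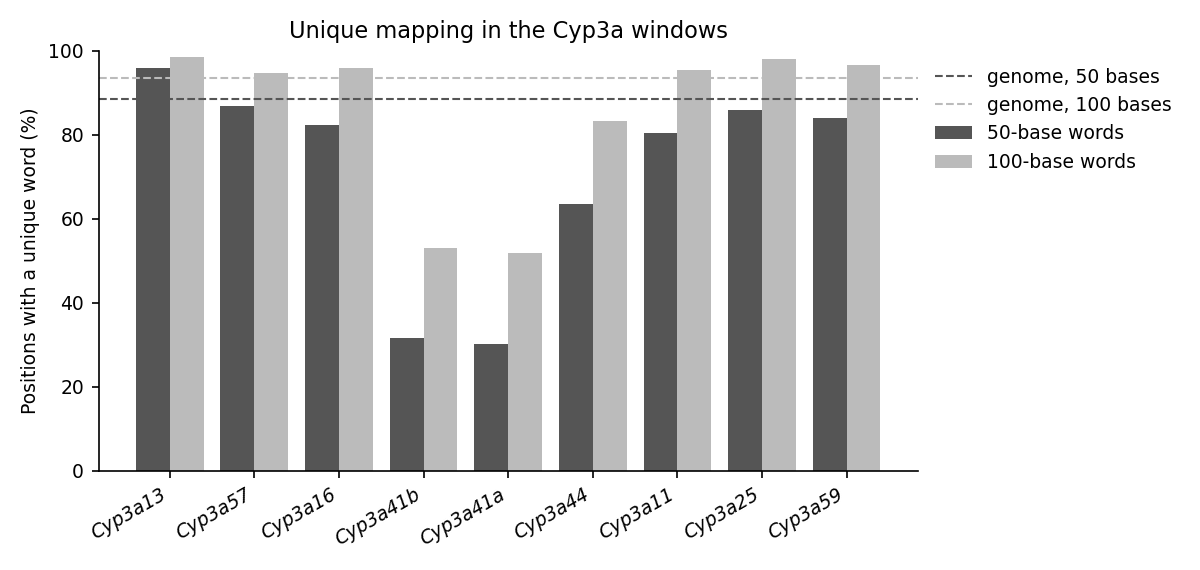
Percentage of positions in each window whose 50-base (dark bars) or 100-base (light bars) word occurs once in the mm9 genome, with dashed lines for the genome as a whole (88.6% and 93.4%). Cyp3a41b and Cyp3a41a are lowest, at 31.7% and 30.1% for 50 bases, and Cyp3a44 is next at 63.4%.

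Fold enrichment is the authors' ratio of pooled ChIP fragments to local background at the summit, the point of the peak with the most fragments. From it and the p-value the number of fragments at the summit (pileup) and the local background could be solved for 99.1% to 99.8% of peaks of a list, as whole numbers. Background away from enriched input was 18.4 fragments and 18.7 in males and females of B6, and 17.8 and 16.8 in those of CAST. Pileups are given with exact 95% Poisson intervals and, between lists, divided by that background. These cover counting error only, not the spread between livers, and fragments may include PCR copies. Where a list had several peaks in a region, the highest-scoring one was taken, and summits of different lists can lie at different places. The lowest pileup of a called peak at genome background was 33, 33, 32 and 31 fragments in the same order, so a region with no call may hold signal below about that height. Where the local background is higher the limit is higher too, and at Cyp3a11 a CAST male call with 115 fragments over a local background of 77.1 had a fold enrichment of only 1.49.

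The livers carried calls at the starts of 8 of 8 hepatocyte markers in every list. Calls at markers of other cells were 0 or 1 of 5 for Kupffer cells, 3 of 4 for endothelium, 1 or 2 of 3 for stellate cells, 2 of 4 for cholangiocytes and 0 or 1 of 4 for lymphocytes. Of 4 markers of muscle, neurons, heart and astrocytes, only Gfap had a call, in all 4 lists. In tissue pools of this kind, fewer cells of a type and less mark per cell cannot be told apart.

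Calls near the starts separated the members. A peak lay within 1 kb of an annotated start of Cyp3a13, Cyp3a57, Cyp3a11 and Cyp3a25 in all 4 lists, and of Cyp3a59 in CAST females only. Cyp3a16, Cyp3a41b, Cyp3a41a and Cyp3a44 had none in any list. Over all protein-coding genes, 58.1% and 58.3% had such a call in males and females of B6 and 60.2% and 59.5% in those of CAST, so 4 or 5 of 9 members was near the background.

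The covered length, the number of bases of a window under peaks, was largest at Cyp3a13 and Cyp3a11, except in CAST females, where Cyp3a16 had as much as Cyp3a11. Cyp3a13 had 3.98 kb (males) and 3.14 kb (females) in B6 and 3.22 kb (males) and 3.31 kb (females) in CAST. Cyp3a11 had 2.85, 2.77, 4.09 and 2.38 kb in the same order of lists. Cyp3a25 had 0.434, 1.17, 1.6 and 1.4 kb, so the B6 male list stood lowest and the other 3 lay close together.

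Cyp3a57 had 0.749 kb and 0.649 kb in males and females of B6, and 0.758 kb and 1.55 kb in those of CAST. Cyp3a16 had 0 kb (males) and 1.03 kb (females) in B6 and 0.711 kb (males) and 2.40 kb (females) in CAST. Cyp3a44 had 0.288 kb in B6 females and 1.12 kb in CAST females and none in either list of males. Cyp3a59 had 0.678 kb in CAST females and none elsewhere. No peak of any list fell in the windows of Cyp3a41b and Cyp3a41a, where few positions can be mapped with 50 bases.

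**Figure D2:**
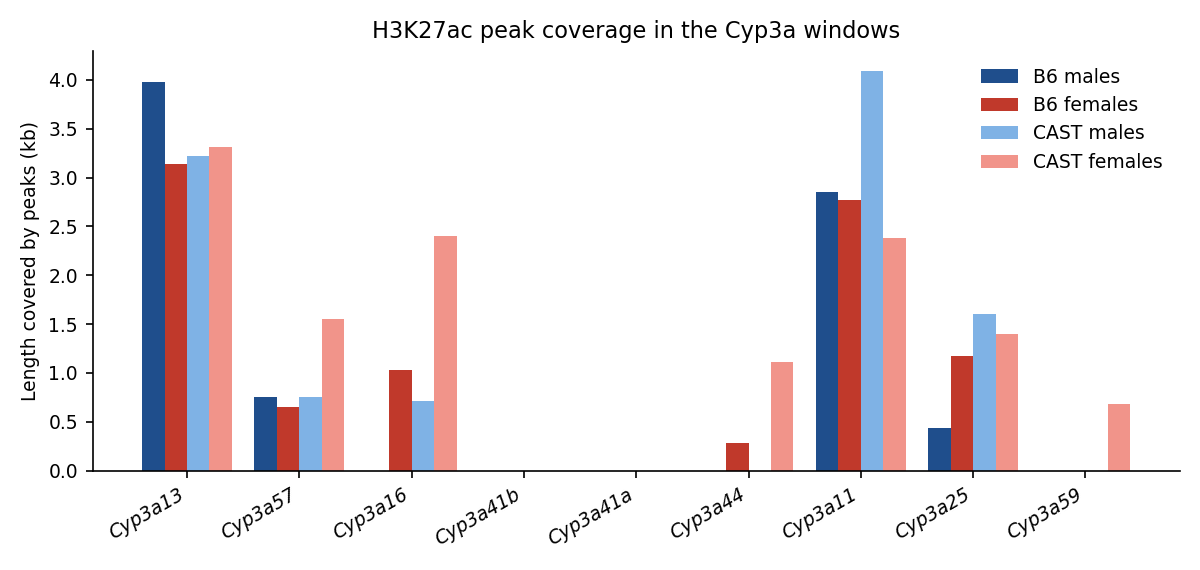
Length covered by H3K27ac peaks (kb) in the window of each Cyp3a gene, with 1 bar per pooled list and no error bars because each group is 1 list. Cyp3a16, Cyp3a44 and Cyp3a59 reach 2.40, 1.12 and 0.678 kb in CAST females, while the windows of Cyp3a41b and Cyp3a41a are empty.

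Female and male livers were compared by the log2 ratio of covered length, with 500 bp added to each side, and a ratio past 1.5-fold was called. In B6, Cyp3a16 (log2 ratio 1.61) and Cyp3a25 (0.84) were longer in females, while Cyp3a13 (−0.30) and Cyp3a11 (−0.03) did not pass. The other 5 members had under 1 kb in both lists and no ratio. Over all 15104 gene windows with 1 kb or more in either B6 list, 2.21% were longer and 3.25% shorter in females, and the median ratio was −0.04. Cyp3a16 and Cyp3a25 each reached 1 kb only in the female list, the side on which they were longer. The ratio of Cyp3a25 fell to 0.54, under the 1.5-fold limit, with 25 kb on each side of the gene.

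In CAST, Cyp3a44 (log2 ratio 1.69), Cyp3a16 (1.26) and Cyp3a57 (0.71) were longer in females and Cyp3a11 was shorter (−0.67). Cyp3a13 (0.04) and Cyp3a25 (−0.15) did not pass, and 3 members had under 1 kb in both lists. In the 15253 gene windows compared, 1.12% were longer and 5.46% shorter in females, with a median of −0.10. Cyp3a44, Cyp3a16 and Cyp3a57 each reached 1 kb only in the female list, the side on which they were longer, so nothing is read from their direction. The call was lost at Cyp3a57 with stricter peaks, of −log10 q of 10 or more (0.27), and at Cyp3a11 with 25 kb flanks (−0.44). Because calls differ in length and not only in presence, these ratios cannot be read as amounts of acetylation.

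The strains were compared in the same way. In males, Cyp3a25 was longer in CAST (log2 ratio 1.17), while Cyp3a11 (0.46) and Cyp3a13 (−0.27) did not pass and 6 members had no ratio. Of 15392 gene windows, 7.50% were longer and 3.14% shorter in CAST males. Cyp3a25 reached 1 kb only in CAST males, and its ratio fell to −0.09 with 25 kb flanks. By number of peaks, Cyp3a11 passed (1.00). In females, Cyp3a44 (1.04), Cyp3a16 (0.93) and Cyp3a57 (0.84) were longer in CAST. Cyp3a44 and Cyp3a57 reached 1 kb only in CAST and had as many peaks in both strains (0.00 by number). The ratios of Cyp3a25 (0.18), Cyp3a13 (0.07) and Cyp3a11 (−0.18) stayed under the limit. Of 15382 windows, 7.46% were longer and 7.45% shorter in CAST females. CAST reads were aligned to a genome carrying CAST variants and then placed on mm9, so strain and reference cannot be told apart.

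Over all 9 windows together, the covered length was 8.01 kb and 9.05 kb in males and females of B6, and 10.4 kb and 12.8 kb in those of CAST. None of the 4 log2 ratios passed 1.5-fold, at 0.17 and 0.29 for females over males in B6 and CAST, and 0.35 and 0.48 for CAST over B6 in males and females. In the 8-gene block without Cyp3a13, which was not planned, the strain ratios passed, at 0.76 in males and 0.65 in females. The sex ratios there did not (0.50 in B6 and 0.39 in CAST).

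Overlapping peaks of the 4 lists were merged into regions, 31 of them in the windows, of which 13 belonged to Cyp3a13. Regions called in all 4 lists numbered 8 of 31, against 40.4% of the 119348 regions of the genome. Among the 16 regions called in B6, 5 were called in females only and 1 in males only, where the genome had 17.5% and 17.4%. These B6 counts were 3 and 2 in fixed bins of 1 kb, 2 and 0 with the stricter peaks, and 1 and 1 with gene bodies alone. Among the 28 called in CAST, 10 were called in females only and 8 in males only, where the genome had 14.1% and 21.5%. These CAST counts were 7 and 1 in fixed bins of 1 kb and 3 and 2 with the stricter peaks. In both strains, 1 of 31 regions was female-only (1.23% of the genome's regions) and 1 was male-only (2.35%). One region was B6-only in both sexes (4.17%) and 0 were CAST-only in both sexes (6.15%). Single-list regions made up 17 of 31 (32.4% of the genome's regions).

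The only female-only region of both strains in the windows lies at chr5:146603488-146604604, in an intron of Cyp3a44 and 13.4 kb downstream of its start. In B6 females it had a fold enrichment of 2.39 and a pileup of 46 fragments (33.7 to 61.4), above 27.4% of that list by rank of score. In CAST females the fold enrichment was 5.67 and the pileup 100 (81.4 to 122), above 82.3% of that list by rank of score. Scaled to background, the CAST female pileup was 2.42 times that of B6 females (interval 1.69 to 3.50). Neither list of males had a call there, but an uncalled B6 male list may hold signal below about 33 fragments, near the lower limit in B6 females. The B6 female call had a −log10 q of 5.62, under the stricter limit of 10. Of the positions in the region, 92.5% were unique at 50 bases. The 200 bases around the CAST female summit, chr5:146604151-146604350 on the plus strand, are printed because 98.5% of their positions were unique in mm9, against 14.5% of the 200 bases before the starts of Cyp3a41b and Cyp3a41a. They hold none of the searched motifs.
Cyp3a44 intron: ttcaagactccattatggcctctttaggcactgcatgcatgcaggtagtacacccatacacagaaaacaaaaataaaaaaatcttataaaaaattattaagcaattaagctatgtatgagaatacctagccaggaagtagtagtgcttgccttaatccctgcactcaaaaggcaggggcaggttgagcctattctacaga

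The male-only region of both strains lies at chr5:138352867-138353469 over a coding exon of Cyp3a13, 9.68 kb downstream of its start. Its pileup was 71 (55.5 to 89.6) in B6 males and 52 (38.8 to 68.2) in CAST males, over local backgrounds of 33.1 and 29.1. The B6-only region, chr5:138363829-138364208, lies 1.17 kb upstream of Cyp3a13 with pileups of 97 in males and 78 in females and fold enrichments of 2.03 and 1.69.

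At Cyp3a16 no call was at the start, and all but 1 lay beyond the 3′ end of the gene. The region at chr5:146191262-146191944, between genes, had 66 fragments (51.0 to 84.0) in females of B6, and in CAST 39 (27.7 to 53.3) in males and 94 (76.0 to 115) in females. The next, at chr5:146192232-146193096, had 50 (37.1 to 65.9), 47 (34.5 to 62.5) and 97 (78.7 to 118). B6 males had no call at either. In CAST the scaled pileup of females was 2.55 times that of males at the first region (1.74 to 3.8) and 2.18 times at the second (1.52 to 3.16). Over the 61594 regions called in both CAST lists the median was 0.894 and the 95th percentile 1.29. The local background was also higher in CAST females, 25.8 and 24.6 fragments against 17.8 in CAST males at both. Fold enrichment, which divides by it, was 3.54 in females against 2.13 in males at the first region and 3.83 against 2.56 at the second, and the part of the input was not tested. CAST females also had calls of 57 fragments at chr5:146193913-146194423 and of 51 at chr5:146225195-146225587, an intron of Cyp3a16, that no other list had.

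At Cyp3a57, the region at chr5:146104879-146105898 just upstream of the start was called in every list. Its pileup was 63 (48.4 to 80.6) in male and 60 (45.8 to 77.2) in female B6, and 57 (43.2 to 73.9) in male and 83 (66.1 to 103) in female CAST. Females over males gave 0.935 in B6 (0.646 to 1.35) and 1.54 in CAST (1.09 to 2.19). A further call in an intron of Cyp3a57, at chr5:146114482-146115015, was present in CAST females only, with 41 fragments.

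Cyp3a11 had the tallest pileups of the block's windows, and of all 9 in B6 females and CAST males. The region over its start, chr5:146690496-146692934, reached 184 fragments (158 to 213) and 209 (182 to 239) in males and females of B6, and 216 (188 to 247) and 135 (113 to 159.8) in those of CAST. Relative to the start, these summits lay at −1.07 and 0.279 kb in males and females of B6, and at −1.02 and −1.04 kb in those of CAST. Scaled to background, females over males was 1.12 in B6 (0.910 to 1.37) and 0.660 in CAST (0.529 to 0.823). In the intron, at chr5:146689423-146690226, the corresponding ratios were 0.937 (0.741 to 1.18) and 0.599 (0.462 to 0.771). CAST females over B6 females gave 0.718 (0.574 to 0.895) at the start and 0.751 (0.575 to 0.977) in the intron. CAST females therefore stood below CAST males at both regions, and below B6 females in the intron, beyond counting error. At the start, the ratios with B6 females set different sites against each other. Over all regions the median was 0.894 for females over males in CAST, below 1 as well, and 1.00 for CAST over B6 in females.

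The fold enrichments at the start of Cyp3a11 did not show this, at 2.71, 3.0, 2.80 and 2.73 in the order B6 males, B6 females, CAST males and CAST females. The local background, which the peak caller takes from the input of the group, was 67.4, 69.1, 76.4 and 48.8 fragments, and was lowest in CAST females as well. The part of the input in the CAST sex difference of pileup was not tested. CAST males had 4 further calls in this window that no other list had, 2 of them in an intron near 12 kb downstream of the start with 58 and 52 fragments.

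Cyp3a25, expressed in adult liver, had a region at chr5:146819721-146820912 just inside its start in every list. Its pileup was 63 (48.4 to 80.6) in male and 81 (64.3 to 101) in female B6, and 92 (74.2 to 113) in male and 93 (75.1 to 114) in female CAST. The female over male ratio was 1.26 in B6 (0.897 to 1.78) and 1.07 in CAST (0.792 to 1.44), both with intervals that hold 1. The CAST over B6 ratio was 1.51 in males (1.08 to 2.11) and 1.28 in females (0.937 to 1.74). The longer covered length in B6 females thus went with a pileup ratio that did not differ from 1 beyond counting error.

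Cyp3a59, whose upstream sequence is close to that of Cyp3a25, had a single call at chr5:146891288-146891965, in its first part, with 40 fragments (28.6 to 54.5) in CAST females. The lists with no call could hold signal below about 32 or 33 fragments, so a difference was not detectable at this depth.

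Cyp3a13 had tall calls around its start in all 4 lists. The region at chr5:138361865-138362834 had 155, 187, 169 and 149 fragments in the order B6 males, B6 females, CAST males and CAST females, and that at chr5:138363105-138363537 had 188, 174, 154 and 118. Females over males at the latter gave 0.909 in B6 (0.735 to 1.12) and 0.810 in CAST (0.631 to 1.04). CAST females over B6 females gave 0.754 (0.591 to 0.958). At chr5:138359980-138360519, over a coding exon, CAST over B6 lay above 1 in males, at 1.47 (1.14 to 1.89), and was 1.18 in females (0.918 to 1.53).

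Among regions of the windows called in both sexes, the counting interval of the female over male ratio lay above 1 in 0 of 10 in B6 and in 3 of 10 in CAST, and below 1 in 0 of 10 and 2 of 10. Over all regions called in both sexes, the interval lay above 1 in 4.39% in B6 and 2.76% in CAST, and below 1 in 8.81% and 22.8%. The 3 were at Cyp3a57 and Cyp3a16, and the 2 at Cyp3a11. For CAST over B6, the interval lay above 1 in 2 of 10 regions in males and 4 of 11 in females, where all regions gave 20.7% and 13.4%. It lay below 1 in 0 of 10 and 3 of 11, where all regions gave 5.23% and 12.9%.

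Many regions of the block lay between the windows, 22 beside the 18 inside them, and were outside the rule that chose the members' peaks. They are described here as chosen after their values were seen. The whole block span held 15 peaks and 24 in males and females of B6, and 25 and 37 in those of CAST, with no gap in the numbering of peaks. Split at the left edge of the Cyp3a11 window, also a choice made after seeing the values, the span on the side of Cyp3a57, Cyp3a16, both Cyp3a41 genes and Cyp3a44 held 1, 8, 5 and 19 peaks. These covered 0.749 kb (males) and 2.85 kb (females) in B6 and 2.2 kb (males) and 11.2 kb (females) in CAST. On the side of Cyp3a11, Cyp3a25 and Cyp3a59 the peaks covered 13, 14.2, 14 and 12.6 kb. Of the first side 61.7% of positions were unique at 50 bases, and of the second 70.4%.

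**Figure D3:**
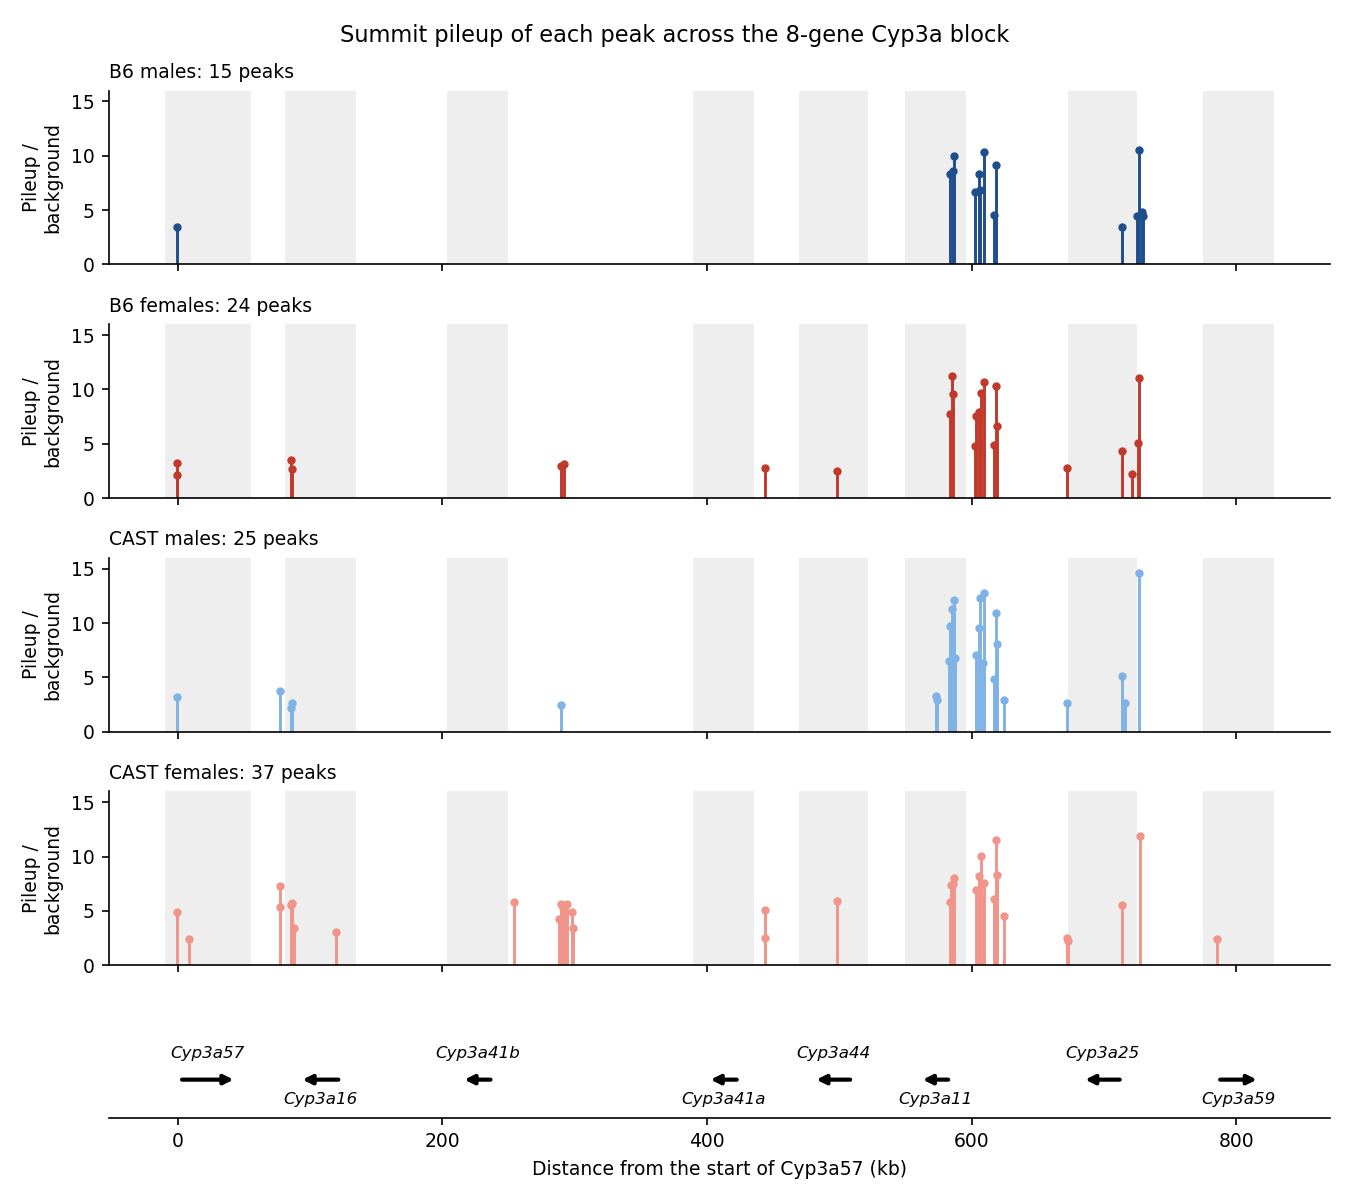
Summit pileup of every peak, divided by the background of its list, against the distance from the start of Cyp3a57 (kb), with the 10-kb windows in grey and arrows for the genes in the direction of transcription. Peaks left of Cyp3a11 number 1 and 8 in males and females of B6, and 5 and 19 in those of CAST, and those around Cyp3a11 and Cyp3a25 are tall in all lists (1 CAST female peak without a solved pileup is not drawn).

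Between the Cyp3a41 genes, CAST females had 7 regions from chr5:146394415 to chr5:146404647, upstream of Cyp3a41b by 49.0 to 58.9 kb. Their pileups ran from 57 to 95 fragments. The local background of CAST females was 18.1 to 31.3 fragments there, above the 16.8 of their list, and the fold enrichments were 2.84 to 3.96. B6 females were called at 2 of them, with 55 (41.4 to 71.6) and 58 (44.0 to 75.0) fragments, CAST males at 1 with 44 (32.0 to 59.1), and B6 males at none. At the region called in both sexes of CAST, fold enrichment was 3.07 in females over a local background of 30.3 and 2.40 in males over 17.8, and the part of the input was not tested. The unique share of these 7 regions was 77.5% to 97.4%. Nearer to Cyp3a41b, 14 kb upstream, CAST females alone had a region of 952 bp at chr5:146359154-146360105 with a pileup of 98 (79.6 to 119).

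Upstream of Cyp3a41a by 17.9 kb, the region at chr5:146549471-146549825 was female-only in both strains, with 52 fragments (38.8 to 68.2) in B6 and 86 (68.8 to 106) in CAST. Together with the Cyp3a44 intron and 1 of the regions between the Cyp3a41 genes (chr5:146398065-146398575), it made 3 female-only regions of both strains among 40 in the block span (1.23% of the genome's regions). The B6 female calls upstream of Cyp3a41a and in the Cyp3a44 intron, with −log10 q of 8.14 and 5.62, were under the stricter limit of 10. No region of the span was male-only in both strains (2.35%). In B6, 0 of 20 were male-only and 8 of 20 female-only, where the genome had 17.4% and 17.5%. In CAST 5 of 38 were male-only, all in the windows of Cyp3a11 and Cyp3a25, and 16 of 38 were female-only, where the genome had 21.5% and 14.1%.

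**Figure D4:**
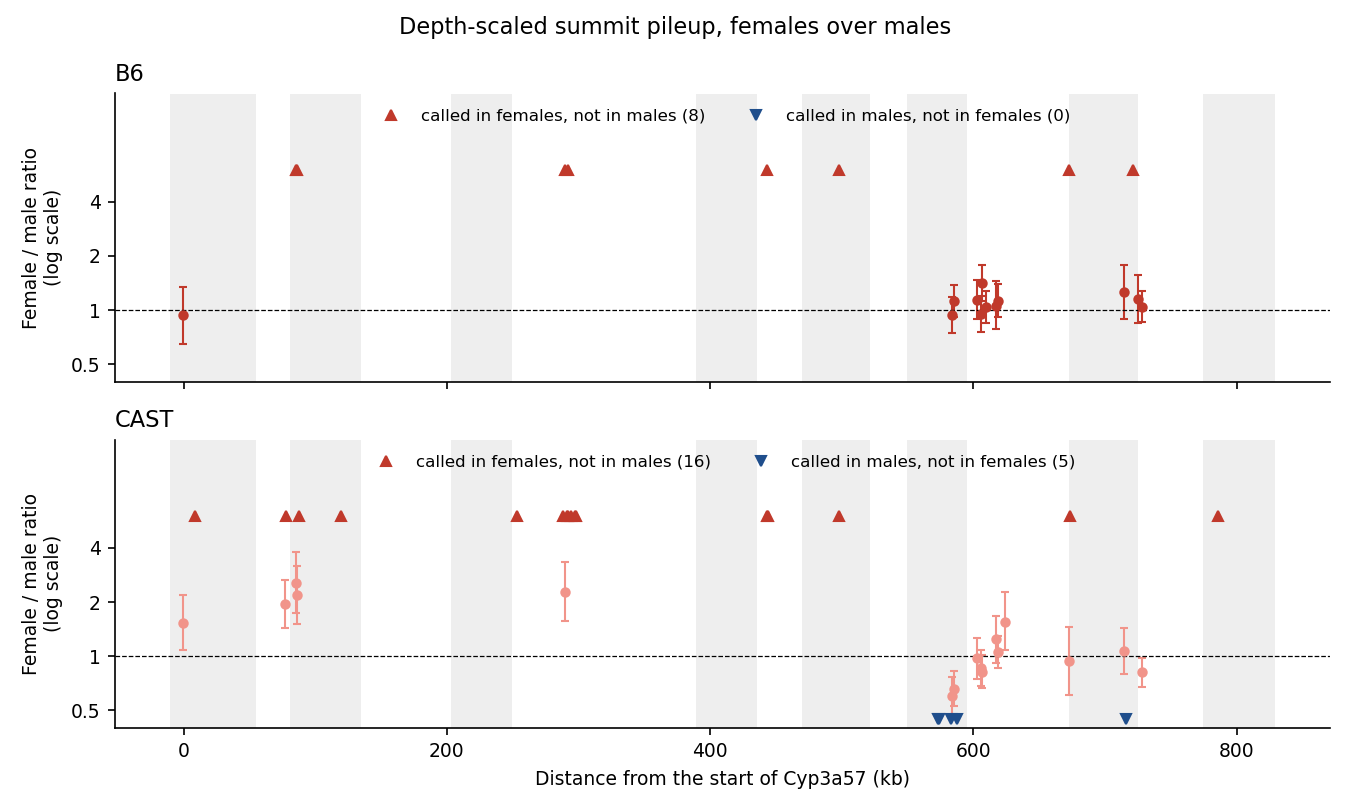
Female over male ratio of summit pileup, each scaled to its list's background, on a log axis for regions called in both sexes of B6 (top) and CAST (bottom), against the distance from the start of Cyp3a57 (kb), with bars for the 95% counting interval and 10-kb windows in grey. Triangles at fixed heights mark regions called in 1 sex only, for B6 8 in females and 0 in males, for CAST 16 and 5.

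The study tested a site beyond the 3′ end of Cyp3a16 by DNase-qPCR, which measures open chromatin and not H3K27ac, with a pair of primers. They matched mm9 at 1 place on chromosome 5, chr5:146183361-146183411 on the plus strand, 13.8 kb past the end of the gene and 3.77 kb outside its window. The 51 bases are printed to show where the assay reads, with the primer sites in capitals.
Cyp3a16 amplicon: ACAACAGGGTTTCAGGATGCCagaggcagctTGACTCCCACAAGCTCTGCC

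No list had a call over these bases. In CAST females they lay between a call that ended 69 bp away, at chr5:146182588-146183291, and another at chr5:146183512-146183812. The pileups there were 123 (102 to 147) and 90 (72.4 to 111). In CAST males the former was called with 67 fragments (51.9 to 85.1), and the female over male ratio was 1.94 (1.43 to 2.65). The nearest peak was 8135 bp away in B6 females and 77596 bp away in B6 males. The region next to the amplicon was thus CAST-only in both sexes.

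Upstream of Cyp3a11, 6 regions from 17.2 to 33.0 kb before its start were called in all 4 lists. At the farthest, chr5:146723673-146725401, the pileup was 168, 193, 194 and 193 fragments in the order B6 males, B6 females, CAST males and CAST females. At chr5:146712364-146713174 it was 126, 181, 219 and 170. The female over male ratio at that region was 1.41 in B6 (1.12 to 1.79) and 0.820 in CAST (0.667 to 1.01). Of the 6, it was the only one in B6 whose interval left out 1.

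Upstream of Cyp3a25, 12.9 kb before its start, the region at chr5:146832425-146835802 had the highest fold enrichments of the block. The authors' ratio was 4.54 (males) and 4.29 (females) in B6 and 10.2 (males) and 11.3 (females) in CAST. The pileups were 193 (167 to 222), 205 (178 to 235), 260 (229 to 294) and 200 (173 to 229.7), and the local backgrounds 41.7, 47.0, 24.5 and 16.8 fragments. Scaled to genome background, CAST over B6 was 1.39 in males (1.15 to 1.68) and 1.08 in females (0.888 to 1.32). The strains thus differed more in local background than in pileup, and the source of the background difference was not tested. Peaks covered 2773 and 3352 bp of the region in B6 males and females but 1462 and 1456 bp in CAST.

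**Figure D5:**
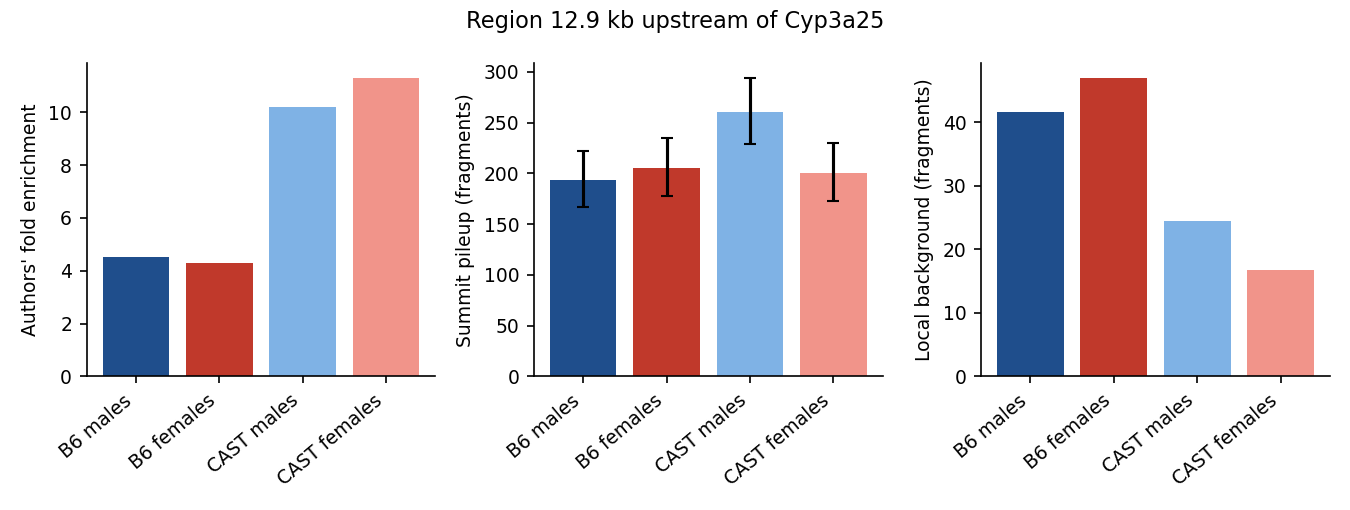
Authors' fold enrichment, summit pileup with 95% Poisson intervals and local background, in fragments, for the region 12.9 kb upstream of Cyp3a25 in each list. Fold enrichment is over 10 in both CAST lists and under 5 in both B6 lists, while the pileups lie between 193 and 260 fragments.

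A further region near Cyp3a25 lies at chr5:146778119-146778748, beyond the 3′ end of the gene and just outside its window. It had 51 fragments in females of B6 and 47 and 42 in males and females of CAST, with no call in male B6. Among the summits of all 22 regions between the windows, 2 held TTCNNNGAA in the 200 bases around them and none of the 31 in the windows did, where 5.82% of the region summits of the genome held it. TGTTTAC was in 2 of 31 and 0 of 22, against 2.74%. The summit near Cyp3a25 is printed with its TTCNNNGAA match in capitals, from chr5:146778441-146778640 on the plus strand.
Cyp3a25 downstream: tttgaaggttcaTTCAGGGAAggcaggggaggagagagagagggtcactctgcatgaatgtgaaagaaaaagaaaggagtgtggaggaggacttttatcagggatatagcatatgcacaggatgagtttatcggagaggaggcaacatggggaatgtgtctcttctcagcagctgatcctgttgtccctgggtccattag

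The nearest genes outside the block did not pass 1.5-fold between the sexes. Log2 ratios of females over males were 0.05 and −0.11 at Zkscan5 in B6 and CAST, −0.05 and −0.07 at Zfp655 and −0.05 and 0.03 at Zfp498 on the left. On the right, Rnf6 had −0.03 and 0.02 and Cdk8 had 0.08 and −0.11. Gm6309 had 0.605 kb in B6 males and 1.08 kb in B6 females (log2 ratio 0.52), and none in CAST, where it had no ratio.

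Of 20 regulators and partners of CYP3A genes, 19 were matched by symbol. They include Nr1i2 and Nr1i3, which encode PXR and CAR, liver factors such as Hnf4a and Foxa2, the growth hormone effectors Stat5a and Stat5b, and Por, the electron donor of cytochromes P450. For females over males 1 of 19 was longer and 0 shorter in both strains, where 2.21% and 1.12% of all gene windows were longer and 3.25% and 5.46% shorter in B6 and CAST. That gene was Cux2, a repressor known as female-specific in liver, with 9.48 kb and 18.9 kb in males and females of B6, and 9.41 kb and 18 kb in those of CAST (log2 ratios 0.96 and 0.90). For CAST over B6, 1 of 19 was longer in each sex and 0 were shorter, near the 7.50% and 7.46% of all gene windows that were longer in males and females. It was Vdr, named after its values were seen, with ratios of 1.12 in males and 1.00 in females. The medians of the 19 were −0.08 and −0.13 for the sexes in B6 and CAST, and 0.05 and 0.06 for the strains in males and females.

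Cyp3a44 was the member with the highest share of covered length in females in both strains, 100% in each. That share is a description and rests on a single call in each strain, with 0.288 kb in B6 and 1.12 kb in CAST, and 0 in males means only that no call was made. Among 16160 genes with at least as much covered length, the 3 whose shares over the 4 lists were closest to it were Gm13060 (Euclidean distance 0.078), Sult2a6 (0.121) and a gene model under the symbol Cdc73 (ENSMUSG00000078284.2, 0.232). Sult2a6 is a hydroxysteroid sulfotransferase, and it had 1.26 kb in B6 females, 3.08 kb in CAST females and none in males. Likeness was measured over 4 lists only.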

How the data were processed

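H3K27ac ChIP-seq peaks were analysed from 4 lists, each pooling the 5 livers of a group, with 1 input per group. Per the study's methods and processing notes, the authors aligned B6 reads to mm9 with Bowtie2 and CAST reads to a genome carrying CAST variants, converted CAST coordinates to mm9, kept unique reads, called peaks with MACS2 against input and removed listed artefact regions. The deposited values are a score and a fold enrichment (ratio) per peak, p- and q-values as −log10, and the summit offset. Read depth per liver was not used here. Genes came from GENCODE vM1. Covered length, regions merged at 1 bp of overlap, and 50- and 100-base unique words were computed with Python 3.11.15, numpy 2.4.6, pysam 0.24.0 and numba 0.67.0. Log2 ratios had 500 bp added to each side, required 1 kb in 1 list and were called past 1.5-fold. Summit pileups were solved from fold enrichment and p-value within 0.01 of a whole number. Code was tested on simulated data. Named genes were all members, 3 neighbours on each side, 20 fixed regulators and the 3 genes most alike. Regions named by rule were those with the highest fold enrichment, those of 1 sex in both strains and those of 1 strain in both sexes. Further regions were named after their values were seen. Members and lists were chosen with earlier results of these data known. With 1 list per group no test was run.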

Additional observations from a re-analysis of the deposited data

Results flagged for a closer look

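The covered length at Cyp3a25 differed in its sex ratio between the strains. The log2 ratio of females over males was 0.84 in B6 and −0.15 in CAST, a difference of 0.99, which fell to 0.49 with 25 kb flanks (0.54 and 0.05). It rose to 1.44 with 100 bp added to each side and to 1.26 weighted by fold enrichment. In B6 the gene reached 1 kb only in females, the side on which it was longer, and the pileup ratios near its start, 1.26 (0.897 to 1.78) and 1.07 (0.792 to 1.44), had overlapping intervals. The difference was not tested, since each value rests on 1 pooled list per group.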

How the results depend on the processing

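None of the 4 covered-length ratios over all windows changed direction past 1.5-fold under the alternatives planned or added. The sex ratio stayed between 0.00 and 0.50 in B6 and between 0.05 and 0.52 in CAST on the log2 scale. The strain ratio passed 1.5-fold in males by number of peaks (0.62) and in the 8-gene block without Cyp3a13 (0.76), and in females with gene bodies alone (0.78), weighted by fold enrichment (0.72) and in that block (0.65). Counting only bases with unique 50-base words gave 0.14, 0.29, 0.33 and 0.48 in the order of the report. For single members, 152 of 170 values stayed within 1.5-fold, 17 moved by more, and 1 reversed. That was Cyp3a25, CAST over B6 in males, which went from 1.17 to -0.09 with 25 kb flanks. These flanks take in further regions, among them the one upstream of Cyp3a25 that is longer in B6. Calls at single members were otherwise lost at Cyp3a25, Cyp3a57, Cyp3a44 and Cyp3a11 as given in the report, and gained at Cyp3a11 by number of peaks and at Cyp3a13 for CAST over B6, in males with lists of equal length (-0.59) and in females with gene bodies alone (0.60).

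Counts of regions depended more on the choices. Regions called in all lists numbered 8, and 5 in fixed bins of 1 kb, 13 with 25 kb flanks and 15 over the whole block span with the Cyp3a13 window, an alternative added after seeing the data. Sex-only regions in B6 went from 6 to 2 with peaks of −log10 q of 10 or more, to 2 with gene bodies alone and to 10 over the span. Those in CAST went from 18 to 8 in bins (1 male-only), to 5 with the stricter peaks (2 male-only) and to 28 over the span, of which 8 male-only and 20 female-only. Strain-only regions went from 1 to 0 with peaks up to 500 bp apart merged, 0 with the stricter peaks, 0 with gene bodies alone, 3 with 25 kb flanks and 4 over the span. No paired analysis was possible because each list pools the livers of its group, and leaving out a liver was not run for that reason. The cause of these changes was not tested. The main limits are 1 list per group, repeated sequence at Cyp3a41a and Cyp3a41b, and CAST reads placed on mm9. There, a difference in gene copies between the strains may not show. Signal below about 31 to 33 fragments at genome background may be missed. So may signal below higher limits where the input is high, as at Cyp3a11 and Cyp3a13.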
